A study of Lactuca sativa with 36 samples.

Results

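The genes described here are 4 genes of nitrogen uptake and assimilation in Italian lettuce, out of 19584 genes with a value. Lsat_1_v5_gn_1_62501 and Lsat_1_v5_gn_7_86961 carry the KEGG term for nitrogen metabolism, and Lsat_1_v5_gn_2_15441 and Lsat_1_v5_gn_2_15461 carry the GO terms for ammonium transport (written 1_62501, 7_86961, 2_15441 and 2_15461 below). They were chosen by their listing as changed genes in root comparisons of the study, so their root values chose them and are given as a description without a test. Both nitrogen metabolism genes were listed for day 1 against day 0 in roots, with and without melatonin. Both ammonium transport genes were listed for day 5 against day 1 in roots without melatonin and for melatonin in roots on day 0, and 2_15441 also for melatonin on day 1. Leaf comparisons, melatonin in roots on day 5 for the nitrogen metabolism genes, and roots against leaves with melatonin on day 5 took no part in that choice and were tested for the genes whose filter allowed it.

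The 36 RNA-seq libraries form 12 groups with 3 replicates each. RCdM are roots and LCdM leaves of plants pretreated with 1 µmol/L melatonin and then given 50 µmol/L CdCl2, and RCd and LCd are roots and leaves of plants given 50 µmol/L CdCl2 alone. The digit in a group name is the day of CdCl2 treatment (0, 1 or 5). All groups of days 1 and 5 received CdCl2, so a change over days cannot be told apart from plant age or the day of harvest. The labels give a seedling age of 20 days before treatment for 34 libraries and 21 days for 2, replicate 2 of LCdM1 and of RCdM1. They do not say whether replicates were separate cultures, so p-values measure the spread between these libraries.

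Plants take up nitrogen mainly as nitrate and ammonium. Nitrate is carried into root cells by membrane transporters, reduced to nitrite by nitrate reductase, a molybdenum enzyme, and then to ammonium by nitrite reductase in plastids. Ammonium is also taken up directly through ammonium transporters. It is joined to glutamate by glutamine synthetase (glutamate-ammonia ligase), which comes in cytosolic forms, common in roots, and a plastid form, abundant in green tissue. Of the 4 genes, 1_62501 also carries the term transmembrane transport, 7_86961 the term oxidation-reduction process, and 2_15441 and 2_15461 the term ammonium transmembrane transporter activity. These terms come from the tables of the study, and the genes are called by them here.

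Values are FPKM, fragment counts scaled to transcript length and library size, summed over the isoforms of a gene, so that levels can be compared between genes per length. Changes are differences of log2(FPKM + 1) with their standard error, and a gene passed a test at a Benjamini-Hochberg adjusted p under 0.05 over all genes of the fit. FPKM totals were 1259744 to 1426917 per library in roots and 1729631 to 2611849 in leaves. In leaves the totals were 2367209 to 2611849 on day 0, 1970733 to 2353403 on day 1 and 1729631 to 2025387 on day 5. The number of reads behind a single FPKM value is not in the table, so no counting error could be given. The 17 light-harvesting antenna genes, used as markers of green tissue, summed to 124 to 824 FPKM in root libraries, against 53909 to 125075 FPKM in leaf libraries. The root sums were 0.131% to 0.870% of the leaf mean, and none of the 17 markers was at 0 in all root libraries. In bulk tissue, fewer cells of a type and less RNA per cell cannot be told apart.

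On day 5, some root libraries were no nearer to their own group than to the other treatment, and the third replicates had the larger gap. Over the genes that passed the filter on low values, the library labelled RCd5 replicate 3 had a mean Pearson r of 0.956 with the RCdM5 libraries and 0.940 with the other RCd5 libraries. The library labelled RCdM5 replicate 3 had 0.954 with the RCd5 libraries and 0.946 with the other RCdM5 libraries. RCd5 replicate 1 was level between the groups, at 0.9510 with the RCdM5 libraries and 0.9506 with the other RCd5 libraries. The antenna sum was 146 FPKM in RCdM5 replicate 3, against 365 and 344 in the other RCdM5 libraries, and 590 FPKM in RCd5 replicate 3, against 167 and 124 in the other RCd5 libraries. The differences of the 4 genes that involve day 5 roots are therefore also given without the third replicates of both groups, an alternative chosen after the data were seen.

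The 4 genes split by tissue. 2_15461 and 1_62501 had their higher levels in roots, while 2_15441 and 7_86961 had their higher levels in leaves. For all of them but 1_62501 the root and leaf libraries did not overlap. How many of all genes had no such overlap was not counted. Tissue differences were common, since 59.1% of the 18056 genes tested differed between roots and leaves with melatonin on day 5. 2_15461 ranged from 104 to 621 FPKM in roots (median 332, n = 18), against 1.10 to 7.03 FPKM in leaves (median 3.04, n = 18). 2_15441 ranged from 82.96 to 361 FPKM in roots (median 186), against 418 to 998 FPKM in leaves (median 730). 7_86961 ranged from 6.66 to 67.7 FPKM in roots (median 24.2), against 106 to 300 FPKM in leaves (median 182).

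1_62501 was the weakest of the 4. It ranged from 0.273 to 9.44 FPKM in roots (median 1.33), against 0 to 0.646 FPKM in leaves (median 0.104), and 6 of 18 leaf libraries listed it at 0. It reached 1 FPKM in 10 of the 18 root libraries and in 0 of the 18 leaf libraries, so it did not pass the filter of at least 1 FPKM in at least 3 libraries in leaves. By median FPKM, 2_15461 ranked 712 of 19584 genes in roots and 13716 in leaves. 2_15441 ranked 1308 in roots and 420 in leaves.

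**Figure D1:**
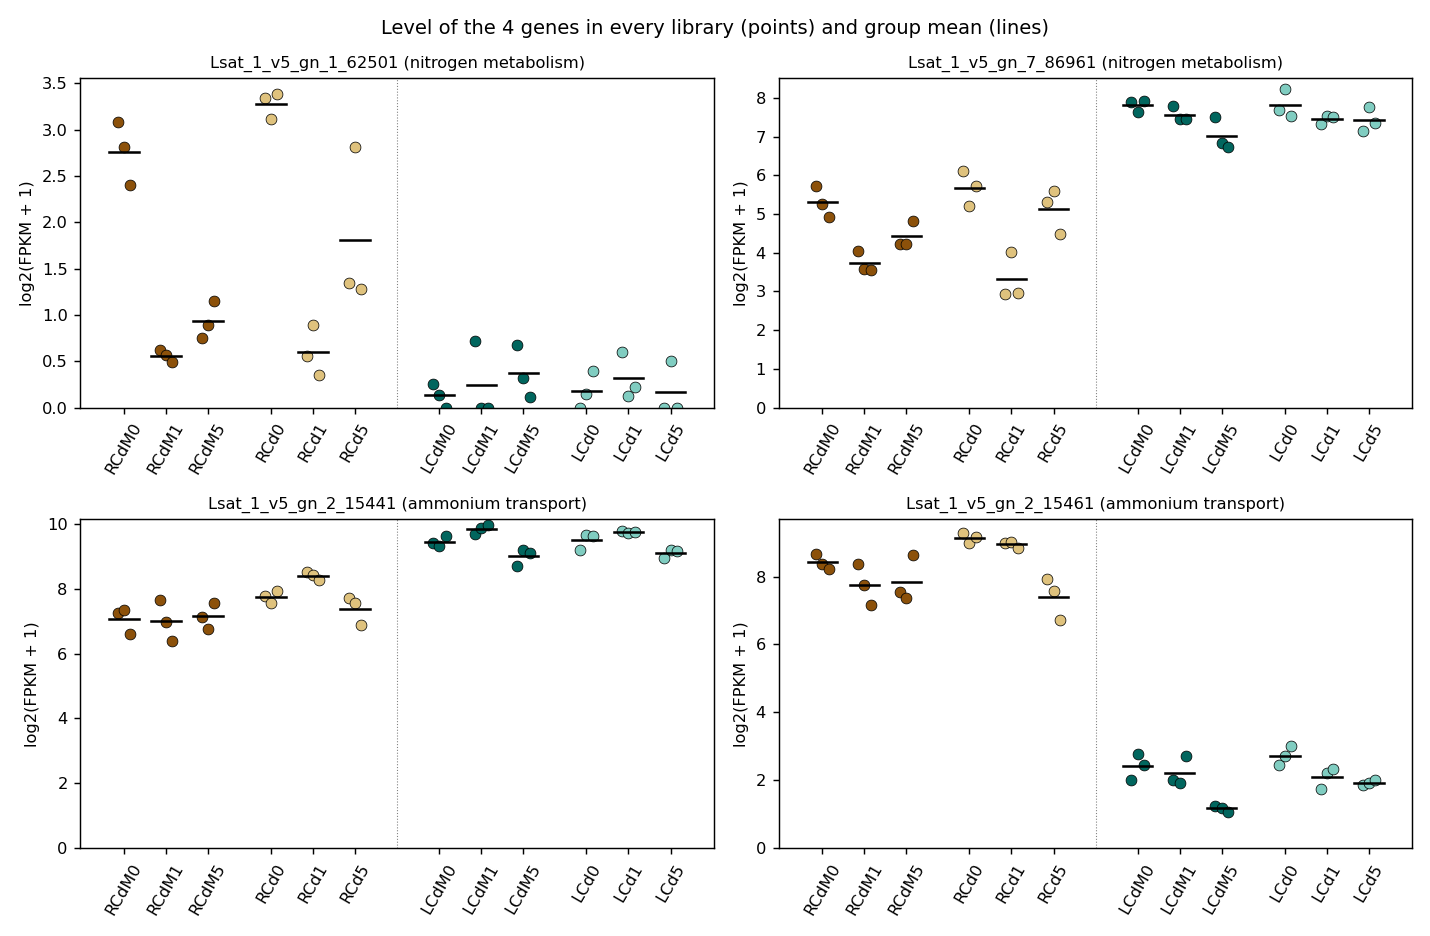
Level of the 4 genes as log2(FPKM + 1) (vertical axis) in every library of the 12 groups (horizontal axis, roots left of the dotted line, leaves right). Points are libraries and lines are the means of 3 libraries on this scale. 2_15461 lies between 104 and 621 FPKM in roots, against 1.10 to 7.03 FPKM in leaves, while 2_15441 and 7_86961 lie higher in leaves.

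Roots against leaves could be tested with melatonin on day 5, since RCdM5 took part in none of the comparisons that list the genes. 2_15461 had 186, 163 and 393 FPKM in RCdM5, against 1.39, 1.28 and 1.10 FPKM in LCdM5. The difference was 6.67 ± 0.31 on the log2(FPKM + 1) scale (SE, limma adjusted p = 1.81e-16), which understates the ratio of the mean FPKM, 197. The other ammonium transport gene differed in the opposite direction, since 2_15441 had 139, 107 and 188 FPKM in RCdM5, against 418, 581 and 553 FPKM in LCdM5. Its log2 difference was -1.85 ± 0.25 (limma adjusted p = 3.24e-07).

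7_86961 had 17.9, 17.5 and 27.1 FPKM in RCdM5, against 179, 114 and 106 FPKM in LCdM5, a log2 difference of -2.61 ± 0.30 (limma adjusted p = 2.55e-08). 1_62501 had 0.686, 0.860 and 1.22 FPKM in RCdM5, against 0.601, 0.248 and 0.0809 FPKM in LCdM5. It entered this fit only through root libraries, so its log2 difference of 0.56 ± 0.28 is a description. The other 3 genes passed, and 59.1% of the 18056 genes tested passed in the same comparison. Without the third replicate of RCdM5 and of RCd5 the values were 6.28 for 2_15461, -2.06 for 2_15441, -2.80 for 7_86961 and 0.45 for 1_62501, and the same 3 genes passed.

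The level of green tissue markers in the roots was set beside the 2 genes that are higher in leaves. Single root libraries held 3.55% to 36.1% of the mean leaf level of 7_86961 and 11.7% to 50.8% of that of 2_15441, while the antenna genes were at 0.131% to 0.870% of their leaf mean in the same libraries.

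The 2 nitrogen metabolism genes had their lowest root levels on day 1. In RCdM, 1_62501 had 7.47, 6.02 and 4.28 FPKM on day 0, 0.534, 0.483 and 0.405 FPKM on day 1, and 0.686, 0.860 and 1.22 FPKM on day 5. In RCd it had 9.11, 7.69 and 9.44 FPKM on day 0, 0.469, 0.850 and 0.273 FPKM on day 1, and 1.53, 6.05 and 1.43 FPKM on day 5. Within each treatment the 3 days did not overlap, and RCd5 replicate 2 was far above the other RCd5 libraries.

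The RCdM1 mean of 1_62501 was 0.0801 of the RCdM0 mean, with a log2 change of -2.21 ± 0.32 (SE). The RCd1 mean was 0.0607 of the RCd0 mean, with a log2 change of -2.68 ± 0.32. At these low levels the log2 scale with 1 added understates the change, and with 0.1 added the values were -3.36 and -3.91. From day 1 to day 5 the log2 change was 0.37 ± 0.32 in RCdM and 1.22 ± 0.32 in RCd, and without the third replicates of day 5 it was 0.27 and 1.48. Without RCd5 replicate 2 the change in RCd was 0.71.

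7_86961, the oxidation-reduction gene, had 52.1, 37.1 and 29.1 FPKM in RCdM0, 15.6, 11.04 and 10.8 FPKM in RCdM1, and 17.9, 17.5 and 27.1 FPKM in RCdM5. In RCd it had 67.7, 35.98 and 52.1 FPKM on day 0, 6.66, 15.3 and 6.80 FPKM on day 1, and 38.6, 46.9 and 21.4 FPKM on day 5. The day 1 libraries were below all others of their treatment, and on day 5 the RCd libraries overlapped those of day 0 while the RCdM libraries did not. The log2 change of day 1 against day 0 was -1.56 ± 0.35 in RCdM and -2.37 ± 0.35 in RCd. That of day 5 against day 1 was 0.69 ± 0.35 in RCdM and 1.81 ± 0.35 in RCd, or 0.49 and 2.14 without the third replicates of day 5.

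The antenna genes were also lower in day 1 roots. They summed to 145 to 190.3 FPKM in RCdM1, against 424 to 824 FPKM in RCdM0, and to 141 to 211 FPKM in RCd1, against 199.8 to 251 FPKM in RCd0. The part of green tissue in the root changes was not tested.

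Melatonin in roots on day 5 was tested for these 2 genes and neither passed. 1_62501 had 0.686, 0.860 and 1.22 FPKM in RCdM5, against 1.53, 6.05 and 1.43 FPKM in RCd5. The groups did not overlap, and the log2 difference was -0.88 ± 0.32 (limma adjusted p = 1), or -0.38 without RCd5 replicate 2 (limma adjusted p = 1). For 7_86961 the groups overlapped and the log2 difference was -0.70 ± 0.35 (limma adjusted p = 1). In this comparison limma called 0 of 17227 genes (0%), with 706 at an unadjusted p under 0.05. Without the third replicate of RCdM5 and of RCd5 the differences were -1.25 (adjusted p = 0.213) for 1_62501 and -1.22 (adjusted p = 0.225) for 7_86961, and limma called 4 of 17176 genes (0.0233%).

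On days 0 and 1, melatonin is a description for both genes. The log2 difference RCdM0 minus RCd0 was -0.52 ± 0.32 for 1_62501, whose groups did not overlap, and -0.38 ± 0.35 for 7_86961, whose groups did. RCdM1 minus RCd1 was -0.04 ± 0.32 for 1_62501 and 0.42 ± 0.35 for 7_86961, with overlapping groups in both. Without RCdM0 replicate 3 the day 0 difference of 1_62501 was -0.33. Leaving out 1 library gave 7_86961 -0.62 to -0.17 on day 0 and 0.24 to 0.78 on day 1.

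The 2 ammonium transport genes followed other courses in roots, which also differed between them. 2_15441 had 151, 162 and 95.3 FPKM in RCdM0, 201, 125 and 82.96 FPKM in RCdM1, and 139, 107 and 188 FPKM in RCdM5. In RCd it had 218, 186 and 244 FPKM on day 0, 361, 344 and 306 FPKM on day 1, and 207, 187 and 117 FPKM on day 5. All 3 RCd1 libraries were above every other root library, while the RCdM libraries overlapped on all days.

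For 2_15441 the log2 change of day 1 against day 0 was -0.05 ± 0.31 in RCdM and 0.65 ± 0.31 in RCd. On its most abundant isoform alone the RCd value was smaller, at 0.29 ± 0.34. The mean share of that isoform in the gene was 65.6% in RCd0 and 51.6% in RCd1. The change of day 5 against day 1 was -1.02 ± 0.31 in RCd, or -0.77 without the third replicates of day 5. RCdM1 minus RCd1 was -1.39 ± 0.31, with group means of 136 ± 59.9 and 337 ± 28.3 FPKM (SD, n = 3 each). RCdM0 minus RCd0 was -0.69 ± 0.31, with means of 136 ± 35.7 and 216 ± 28.8 FPKM, or -0.46 without RCdM0 replicate 3. Neither pair of groups overlapped.

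2_15461, the ammonium transport gene with the higher level in roots, had 402, 333 and 295 FPKM in RCdM0, 331, 216 and 141 FPKM in RCdM1, and 186, 163 and 393 FPKM in RCdM5. In RCd it had 621, 511 and 570 FPKM on day 0, 505, 512 and 461 FPKM on day 1, and 242, 190 and 104 FPKM on day 5. In RCd, days 0 and 1 overlapped slightly and all day 5 libraries were lower. Day 1 minus day 0 was -0.65 ± 0.36 in RCdM, where the days overlapped, and -0.20 ± 0.36 in RCd. Without RCdM1 replicate 3 the RCdM value was -0.35. On the most abundant isoform alone the RCd value was -0.41. The log2 change of day 5 against day 1 was 0.08 ± 0.36 in RCdM and -1.54 ± 0.36 in RCd, or -0.31 and -1.19 without the third replicates of day 5.

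RCdM0 minus RCd0 was -0.73 ± 0.36 for 2_15461, with means of 343 ± 54.3 and 567 ± 55.2 FPKM. RCdM1 minus RCd1 was -1.18 ± 0.36, with means of 229 ± 95.3 and 493 ± 27.6 FPKM. In neither pair did the groups overlap. Within day 0 and within day 1, both ammonium transport genes were lower in every RCdM library than in any RCd library. Melatonin on day 0, and for 2_15441 also on day 1, was among the comparisons that chose the genes. How many of all genes had no such overlap was not counted. On day 5 the groups overlapped. RCdM5 minus RCd5 was 0.44 ± 0.36 for 2_15461 and -0.23 ± 0.31 for 2_15441, and without the third replicates it was -0.30 and -0.69. The sign for 2_15461 on day 5 therefore rested on the third replicates, and leaving out 1 of them gave 0.048 (RCdM5) or 0.090 (RCd5).

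The 12 groups were also put in order of their mean level. For 2_15461 it ran from RCd0 (567 FPKM) over RCd1 (493), RCdM0 (343), RCdM5 (247), RCdM1 (229) and RCd5 (179) to the leaf groups, of which LCdM5 (1.26) was lowest. Neighbours in this order overlapped, except RCd1 above RCdM0, RCd5 above LCd0, and LCd5 above LCdM5. For 2_15441 it ran from LCdM1 (919 FPKM) and LCd1 (852) over LCd0 (729), LCdM0 (696), LCd5 (550) and LCdM5 (517) to RCd1 (337) and RCd0 (216), with RCdM0 (136) lowest. Its leaf groups fell into 3 steps by day, with no overlap between neighbours LCd1 and LCd0 or between LCdM0 and LCd5.

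For 1_62501 the order began with RCd0 (8.74 FPKM), RCdM0 (5.92) and RCd5 (3.00), and all other groups were under 1 FPKM. RCd0 did not overlap RCdM0, and RCd5 did not overlap RCdM5 (0.923). For 7_86961 the 6 leaf groups ran from LCd0 (229 FPKM) to LCdM5 (133) with overlap between all neighbours. Its root groups ran from RCd0 (51.9) to RCdM5 (20.8) with overlap, and then to RCdM1 (12.5) and RCd1 (9.59) without overlap to RCdM5.

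The balance between the 2 ammonium transport genes also moved. In roots 2_15461 made up 47.0% to 75.6% of the summed FPKM of the pair, against 0.199% to 0.927% in leaves. Its share in RCdM was 71.9 ± 4.22% on day 0, 62.9 ± 0.620% on day 1 and 61.7 ± 5.29% on day 5 (SD, n = 3 each). In RCd it was 72.5 ± 2.12% on day 0, 59.4 ± 0.977% on day 1 and 50.5 ± 3.45% on day 5, with no overlap between days. The third replicates widened the gap between the treatments on day 5. RCdM5 replicate 3 was at 67.6%, against 57.3% and 60.4% in the other RCdM5 libraries. RCd5 replicate 3 was at 47.0%, against 53.9% and 50.5% in the other RCd5 libraries. In leaves the share was highest on day 0, at 0.645 ± 0.252% in LCdM0 and 0.775 ± 0.104% in LCd0. The identifiers of the pair lie close together, and how reads from similar copies were divided was not tested.

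**Figure D2:**
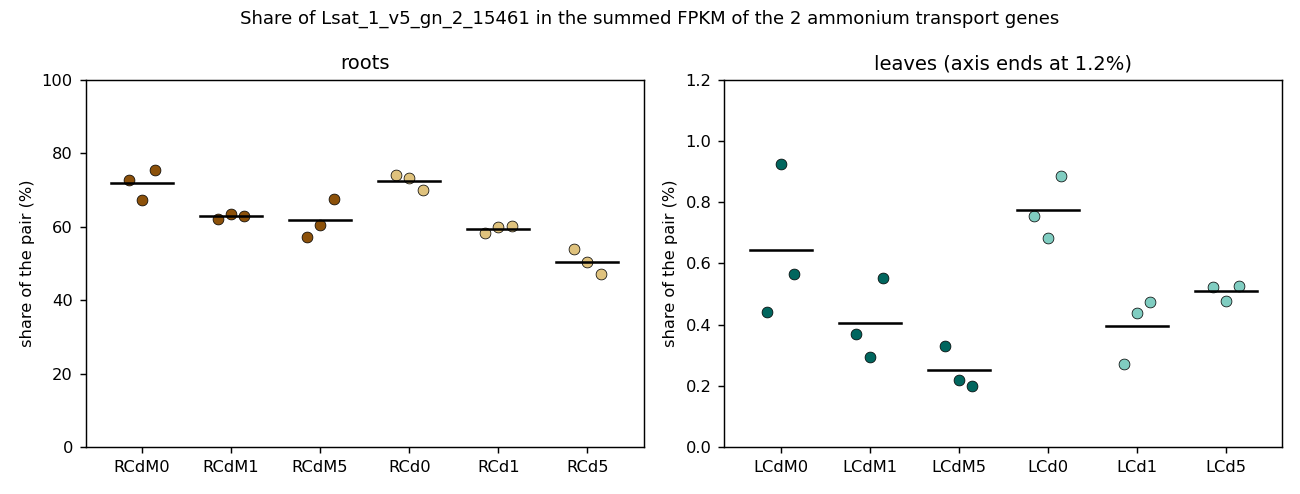
Share of 2_15461 in the summed FPKM of 2_15461 and 2_15441 in percent (vertical axis) for each root group (left, axis to 100%) and each leaf group (right, axis to 1.2%). Points are libraries and lines are means of 3. In RCd roots the mean share was 72.5% on day 0, 59.4% on day 1 and 50.5% on day 5.

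Each ammonium transport gene was listed with 4 isoforms, and each nitrogen metabolism gene with 1. The reference isoform carried 57.6% of the summed 2_15441 FPKM in roots, against 52.1% in leaves, and the first new isoform carried 27.5% in roots, against 35.6% in leaves. For 2_15461 in roots the reference isoform carried 51.2% and the second new isoform 41.9%, and the third new isoform was at 0 in 13 of 18 root libraries. In leaves, where 2_15461 was near 3 FPKM, the split between its isoforms varied widely between replicates. The share of the reference isoform in single LCdM1 libraries, for example, spanned 18.6% to 97.5%.

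**Figure D3:**
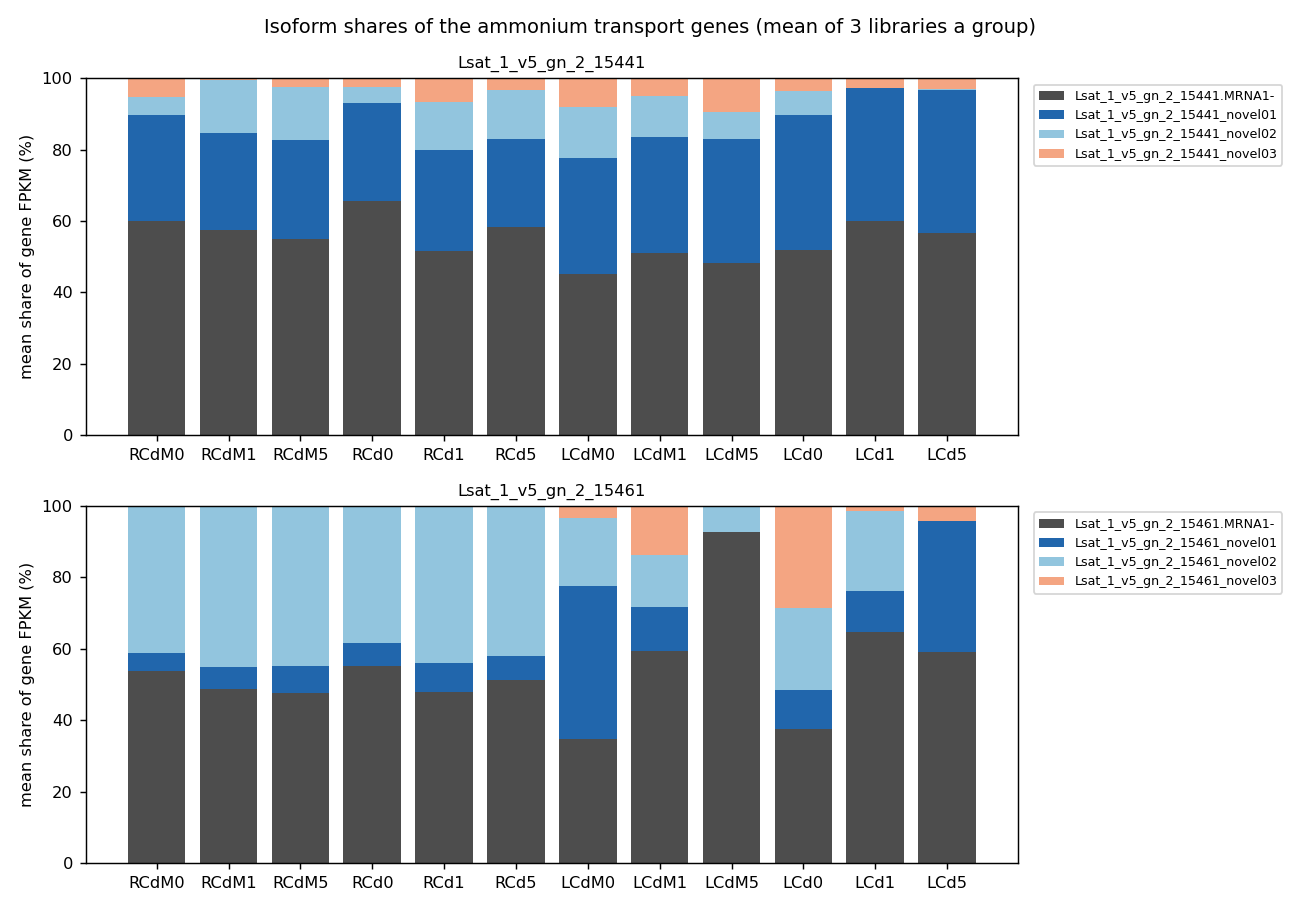
Mean share of each listed isoform in the FPKM of 2_15441 (top) and 2_15461 (bottom), in percent (vertical axis), for the 12 groups (horizontal axis). Each bar is the mean of 3 libraries. In the 6 root groups the reference isoform of 2_15461 held 47.7% to 55.2% on average, against 34.8% to 92.8% in the 6 leaf groups.

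In leaves 3 of the 4 genes passed the filter, and the calls were falls by day 5. 2_15441 fell to 418, 581 and 553 FPKM in LCdM5, against 819, 940 and 998 FPKM in LCdM1. The log2 change was -0.84 ± 0.15 (limma adjusted p = 0.00479). Without melatonin it fell to 495, 577 and 576 FPKM in LCd5, against 874, 833 and 850 FPKM in LCd1, a log2 change of -0.64 ± 0.15 (limma adjusted p = 0.0231). The groups did not overlap in either case.

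Against day 0, 2_15441 was lower in every day 5 library but did not pass the test. LCdM5 minus LCdM0 was -0.44 ± 0.15 (limma adjusted p = 0.0514), with LCdM0 at 679, 630 and 780 FPKM. LCd5 minus LCd0 was -0.40 ± 0.15 (limma adjusted p = 0.0913), with LCd0 at 588, 813 and 785 FPKM. Day 1 minus day 0 was 0.40 ± 0.15 in LCdM (limma adjusted p = 0.326) and 0.24 ± 0.15 in LCd (limma adjusted p = 0.445). The call for LCd5 against LCd1 was lost without replicate 1, 2 or 3 of LCd1 or replicate 1 or 2 of LCd5 (adjusted p 0.0568 to 0.0852), and with the share of high-quality bases as a covariate (-0.90, adjusted p = 0.369). That for LCdM5 against LCdM1 was lost in a fit of the 2 groups alone (adjusted p = 0.0703).

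2_15461 is low in leaves and fell further by day 5. It fell to 1.39, 1.28 and 1.10 FPKM in LCdM5, against 3.01, 5.89 and 4.45 FPKM in LCdM0, a log2 change of -1.24 ± 0.25 (limma adjusted p = 0.00275). Against LCdM1, with 3.03, 2.77 and 5.53 FPKM, the change was -1.04 ± 0.25 (limma adjusted p = 0.0165). It fell to 2.60, 2.77 and 3.04 FPKM in LCd5, against 4.47, 5.58 and 7.03 FPKM in LCd0, a log2 change of -0.80 ± 0.25 (limma adjusted p = 0.0392). In these 3 comparisons the groups did not overlap.

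LCd5 minus LCd1 was -0.18 ± 0.25 for 2_15461 (limma adjusted p = 0.711). Day 1 minus day 0 was -0.20 ± 0.25 in LCdM (limma adjusted p = 0.832) and -0.62 ± 0.25 in LCd (limma adjusted p = 0.195). The call for LCd5 against LCd0 held only when LCd0 replicate 1 was the library left out and was lost with each of the other 5 (adjusted p 0.0581 to 0.134). That for LCdM5 against LCdM1 was lost without LCdM1 replicate 3 (-0.79, adjusted p = 0.0722) and in a fit of the 2 groups alone (adjusted p = 0.0954). The reference isoform of 2_15461 taken alone passed in none of the 3 comparisons, with log2 changes of -0.23 for LCdM5 minus LCdM0, -0.36 for LCdM5 minus LCdM1 and -0.23 for LCd5 minus LCd0.

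7_86961 fell to 179, 114 and 106 FPKM in LCdM5, against 236, 199 and 243 FPKM in LCdM0. The log2 change was -0.80 ± 0.22 (limma adjusted p = 0.0194), and the groups did not overlap. LCd5 had 141, 217 and 162 FPKM, against 203, 300 and 184 FPKM in LCd0, a log2 change of -0.39 ± 0.22 that did not pass (limma adjusted p = 0.258). LCdM5 minus LCdM1 was -0.54 ± 0.22 (limma adjusted p = 0.131, but 0.0434 without LCdM5 replicate 1) and LCd5 minus LCd1 was -0.03 ± 0.22 (limma adjusted p = 0.952). The call against LCdM0 was lost without replicate 1 or 3 of LCdM0 or replicate 2 or 3 of LCdM5 (adjusted p 0.0577 to 0.0810).

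These calls stood in comparisons with many others. Of the 16800 leaf genes tested, 14.8% fell in LCdM5 against LCdM0, where 2 of the 3 genes fell, and 11.1% fell in LCd5 against LCd0, where 1 fell. In LCdM5 against LCdM1 8.39% fell, and 2 of the 3 genes fell. In LCd5 against LCd1 4.42% fell, and 1 of the 3 did. On day 1 against day 0, 0.256% of genes passed in LCdM and 2.95% in LCd, and none of the 3 genes did. The FPKM totals of leaf libraries, given above, were also lower on later days, and their part in these falls was not tested beyond a rescaling of the libraries. The antenna genes moved the same way. They summed to 53909 to 69847 FPKM in LCdM5, against 115468 to 125075 FPKM in LCdM0, and to 72299 to 93146 FPKM in LCd5, against 115180 to 117257 FPKM in LCd0 and 79872 to 93957 FPKM in LCd1, which overlapped. Of the 17 antenna genes, 14 fell in LCdM5 against LCdM0, 9 in LCd5 against LCd0 and 1 in LCd5 against LCd1, while in LCdM5 against LCdM1 13 fell and 1 rose. Their part in these falls was not tested.

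With the share of high-quality bases of each library as a covariate, none of the 3 calls against day 0 passed, with log2 changes of -1.32 for 2_15461 and -0.91 for 7_86961 in LCdM and -0.89 for 2_15461 in LCd. The call for 2_15441 in LCd5 against LCd1 was lost as well, as given above.

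**Figure D4:**
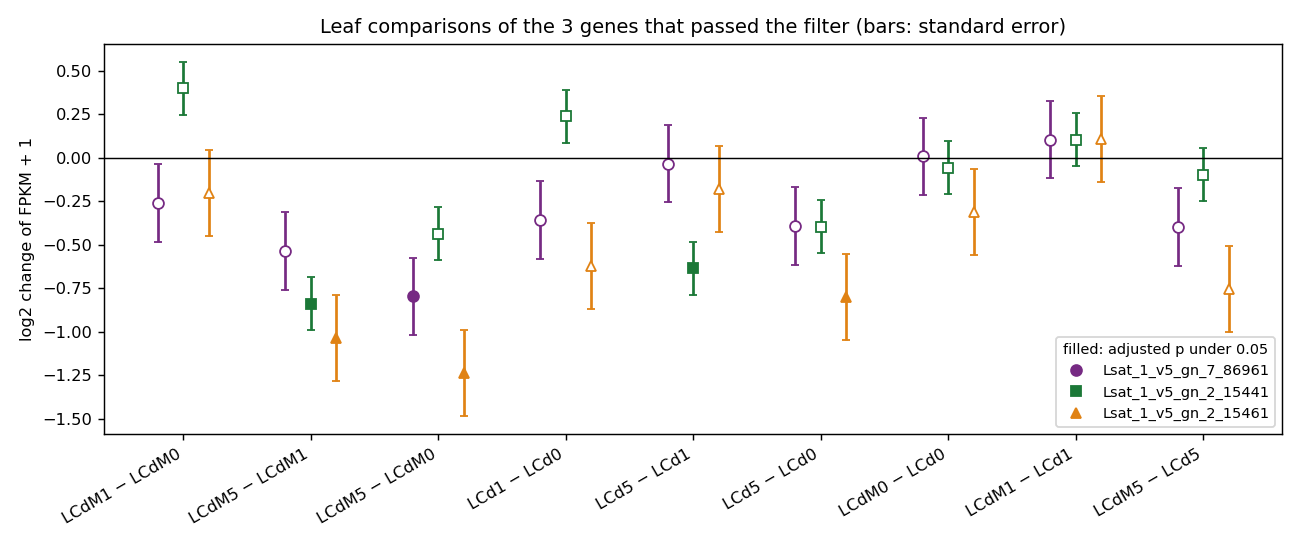
Log2 change of FPKM + 1 (vertical axis) in 9 leaf comparisons (horizontal axis) for the 3 genes that passed the filter. Bars are standard errors, and filled symbols passed at an adjusted p under 0.05. The 6 filled symbols are changes of day 5 against day 0 or day 1, all below 0 (-1.24 to -0.64), and no melatonin comparison is filled.

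Melatonin in leaves gave no call for the 3 genes on any day. The largest difference was in 2_15461 on day 5, with 1.39, 1.28 and 1.10 FPKM in LCdM5, against 2.60, 2.77 and 3.04 FPKM in LCd5. The groups did not overlap, but the log2 difference of -0.75 ± 0.25 did not pass (limma adjusted p = 0.367). For 7_86961 on day 5 it was -0.40 ± 0.22 (limma adjusted p = 0.627), and for 2_15441 -0.10 ± 0.15 (limma adjusted p = 0.903).

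On day 0 the differences LCdM0 minus LCd0 lay between -0.31 ± 0.25 for 2_15461 and 0.01 ± 0.22 for 7_86961, and on day 1 LCdM1 minus LCd1 was 0.10 to 0.11 for all 3 genes. Limma called 0.0238% of leaf genes for melatonin on day 0, 0 genes (0%) on day 1, with 757 at an unadjusted p under 0.05, and 0.0774% on day 5. The difference between the changes with and without melatonin did not pass for any of the 3 genes either. It was nearest for 2_15461 from day 1 to day 5, at -0.86 ± 0.35 (limma adjusted p = 0.727). The shares of all genes that passed this test were 0.0119% for day 1 against day 0, 0.0119% for day 5 against day 1 and 0.0357% for day 5 against day 0.

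The genes whose root pattern was most like that of each member were looked up among 17226 genes, by Pearson r of log2(FPKM + 1) over the 18 root libraries, which share their groups and days. For 1_62501 they were Lsat_1_v5_gn_5_5301 (r = 0.962), Lsat_1_v5_gn_7_94901 (r = 0.961) and Lsat_1_v5_gn_7_86981 (r = 0.949). For 7_86961 they were Novelgene1959 (r = 0.960), Lsat_1_v5_gn_7_86981 (r = 0.950) and Novelgene1903 (r = 0.932). Both lists thus held Lsat_1_v5_gn_7_86981, another nitrogen metabolism gene from the study's tables of changed genes. The r between 1_62501 and 7_86961 was 0.896. Both were chosen by the same root comparisons, so this likeness is not independent of that choice.

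For 2_15441 the nearest were Lsat_1_v5_gn_6_72500 (r = 0.968), Lsat_1_v5_gn_6_72520 (r = 0.957) and Lsat_1_v5_gn_4_29661 (r = 0.942). For 2_15461 they were Lsat_1_v5_gn_5_158001 (r = 0.943), Novelgene1058 (r = 0.942) and Lsat_1_v5_gn_4_70901 (r = 0.941). Genes alike in roots could differ in the tissue split. Lsat_1_v5_gn_6_72500 averaged 212 to 460 FPKM in the root groups, against 0.606 to 1.89 FPKM in the leaf groups, whereas 2_15441 was higher in leaves. Between the 2 ammonium transport genes r was 0.739, and between an ammonium transport and a nitrogen metabolism gene it was -0.09 to 0.38. The ammonium transport genes were chosen by other root comparisons than the nitrogen metabolism genes, so these values are descriptions too.

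The other genes of these pathways came from the study's tables of changed genes, so their root courses are descriptions too. They were 9 other nitrogen metabolism genes and 2 genes listed under ammonium transport or glutamate-ammonia ligase activity. All 9 had a lower level on day 1 than on day 0, with a median log2 change of -1.42 in RCdM and -1.65 in RCd, against -0.03 and 0.00 over all genes. Lsat_1_v5_gn_1_63521, a transmembrane transport gene, had 47.2, 44.7 and 19.6 FPKM in RCdM1, against 250, 252 and 156 FPKM in RCdM0. It had 35.3, 67.3 and 49.0 FPKM in RCd1, against 268, 203 and 267 FPKM in RCd0. As in 1_62501 and 7_86961, days 0 and 1 did not overlap within a treatment.

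Lsat_1_v5_gn_1_63501, also a transmembrane transport gene, had log2 changes of -1.90 ± 0.35 in RCdM and -1.87 ± 0.35 in RCd. Lsat_1_v5_gn_7_94901, listed under nitrate assimilation and molybdenum binding, had -1.83 ± 0.41 in RCdM and -2.32 ± 0.41 in RCd. Lsat_1_v5_gn_7_86981, an oxidation-reduction gene, had -1.38 ± 0.29 in RCdM and -2.13 ± 0.29 in RCd. Its identifier is close to that of 7_86961, which held 24.5% to 40.7% of their summed FPKM in roots, against 26.8% to 39.9% in leaves, and how reads shared by the 2 genes were divided was not tested.

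The third ammonium transport gene, Lsat_1_v5_gn_5_149621, ranged from 13.6 to 35.2 FPKM in roots. It had 21.4, 19.8 and 23.1 FPKM in RCdM0, against 30.7, 30.4 and 34.9 FPKM in RCd0, and these groups did not overlap. Its log2 differences were -0.56 ± 0.20 for RCdM0 minus RCd0 and -0.59 ± 0.20 for RCdM1 minus RCd1, below 0 as for the 2 members. The change of day 5 against day 1 in RCd was -0.58 ± 0.20, and that of day 1 against day 0 was -0.14 ± 0.20 in RCdM and -0.11 ± 0.20 in RCd.

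Melatonin in roots on day 5 gave no call by limma among the 11 genes, with a median log2 difference of -0.43, against 0.02 over all genes. In leaves 10 of the 11 passed the filter, and 4 of them fell in LCdM5 against LCdM0, where 14.8% of all genes fell. Lsat_1_v5_gn_5_77601, a glutamate-ammonia ligase, fell to 763, 590 and 634 FPKM in LCdM5, against 1822, 2037 and 1698 FPKM in LCdM0, a log2 change of -1.49 ± 0.21. Lsat_1_v5_gn_4_5700, a carbonate dehydratase, fell by 1.18 on the log2 scale, Lsat_1_v5_gn_7_86981 by 0.91 and Lsat_1_v5_gn_8_106740, a nitrate assimilation gene, by 0.69.

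In LCd5 against LCd0 3 of the 10 fell, where 11.1% of all genes fell. They were Lsat_1_v5_gn_5_77601, by 1.29, Lsat_1_v5_gn_4_5700, by 0.92, and Lsat_1_v5_gn_7_86981, by 0.63. The study's tables of leaf comparisons also list Lsat_1_v5_gn_5_77601 and Lsat_1_v5_gn_4_5700, so these counts are not independent of the choice of the genes.

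Other pathway genes were split by tissue too. With melatonin on day 5, 10 of them differed between roots and leaves, 5 higher and 5 lower in roots, where 59.1% of all genes differed. Lsat_1_v5_gn_6_111381 was listed at 0 in all 18 leaf libraries, entered the fit only through root libraries and is not counted. The 2 nitrate assimilation genes differed in opposite directions. Lsat_1_v5_gn_7_94901 had 7.30, 7.80 and 14.0 FPKM in RCdM5, against 1.10, 0.417 and 1.27 FPKM in LCdM5 (log2 difference 2.45 ± 0.36). Lsat_1_v5_gn_8_106740 had 92.9, 147 and 122 FPKM in RCdM5, against 3364, 2406 and 3562 FPKM in LCdM5 (log2 difference -4.68 ± 0.25). Of the glutamate-ammonia ligases, Lsat_1_v5_gn_2_68621 had a median of 1282 FPKM in roots, against 609 FPKM in leaves, and Lsat_1_v5_gn_5_77601 a median of 37.4 FPKM in roots, against 1046 FPKM in leaves.

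**Figure D5:**
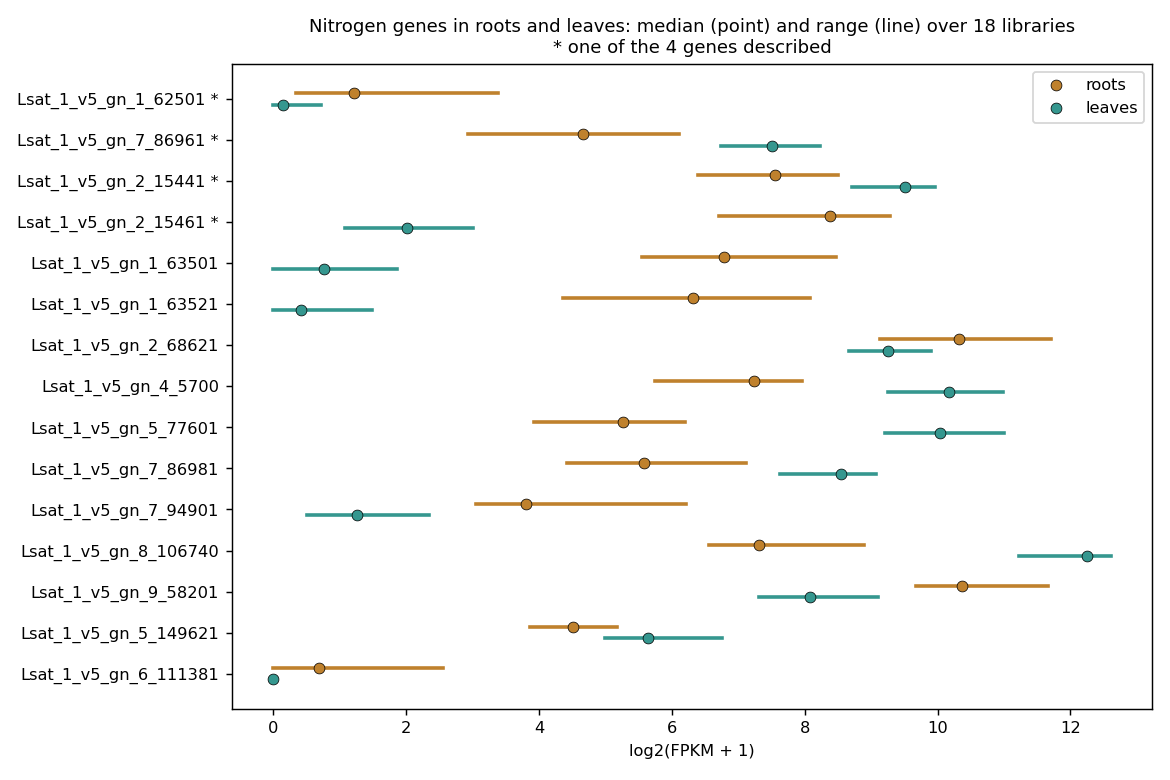
Median (point) and range (line) of log2(FPKM + 1) (horizontal axis) over 18 root and 18 leaf libraries for the 4 genes (marked *) and the 11 other pathway genes (vertical axis). Root and leaf ranges lie apart for 2_15461 (104 to 621 FPKM in roots, against 1.10 to 7.03 FPKM in leaves), and in the opposite direction for 2_15441 and 7_86961.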

How the data were processed

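RNA was sequenced from roots and leaves of Italian lettuce in 36 libraries. Per the sources, the authors aligned reads with TopHat2 2.0.12 on Bowtie2, for which the sources give different versions, and deposited FPKM values for 59872 isoforms. The methods describe FPKM per gene, while the table lists isoforms, and no source used here says how reads were divided among isoforms. The labels and the methods name different library kits, so strandedness is not known.

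Isoform FPKM were summed to 19584 genes. Values were tested as log2(FPKM + 1) with limma 3.58.1 (trend, R 4.3.3) in 1 fit per tissue, or over all 36 libraries for roots against leaves, after keeping genes that reached 1 FPKM in 3 or more libraries of the fit. P-values were adjusted by Benjamini-Hochberg over all genes of the fit. The fits were tested on simulated data. Members and lists were chosen with earlier results of these data known, and root comparisons that share libraries with that choice carry no p. Beside the members, up to 4 genes per list with the largest change and the 3 genes most like each member in roots are named. No RefSeq entry matched the identifiers, so no sequence is shown. Alternatives were a pseudocount of 0.1, no filter, median-ratio scaling, the most abundant isoform, a base quality covariate, the compared groups alone, a replicate block and leaving out each library.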

Additional observations from a re-analysis of the deposited data

How the results depend on the processing

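Under settings other than leaving out 1 library, 531 of 565 values over 80 results stayed the same. When 1 library was left out, 473 of 510 values over 76 results did so. Tested values stayed the same if they kept their direction and side of the threshold, and untested ones if they moved by less than the spread. The 565 values include the alternative without the third replicates of day 5 roots. They also include counts of other pathway genes called, judged by how far the count moved. The cause of the changes below was not tested. With a pseudocount of 0.1, 1_62501 had a log2 change of -3.91 in RCd1 against RCd0 and -3.36 in RCdM1 against RCdM0. For 2_15461 in LCd5 against LCd0 the call was lost with median-ratio scaling (-0.72), the quality covariate (-0.89), the most abundant isoform (-0.23) and the groups alone (-0.80), and the change was -0.93 to -0.66 when 1 library was left out. In LCdM5 against LCdM0 the call for 2_15461 was lost with the quality covariate (-1.32) and the most abundant isoform (-0.23), and that for 7_86961 with the quality covariate (-0.91) and the groups alone (-0.80), with -1.03 to -0.65 when 1 library was left out. Within a tissue, replicate numbers did not pair the libraries. Deviations of same-numbered libraries correlated from -0.41 to 0.35 in roots, with 4 of 18 libraries nearest to their own number. In leaves they correlated from -0.33 to 0.32, with 7 of 18. Whether root and leaf libraries of the same number were paired was not checked. With a replicate block 2_15441 passed in LCd5 against LCd0 (-0.40, adjusted p = 0.0484) and in LCdM5 against LCdM0 (-0.44, adjusted p = 0.0256). Without 1 library these were -0.54 to -0.31 and -0.53 to -0.29, passing without LCd0 replicate 1 and without LCdM5 replicate 2. The block changed no other call of a member.

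The differences that changed sign had passed no test. With the quality covariate, 2_15441 was at -0.071 and 7_86961 at -0.019 for the day 1 change with minus without melatonin, and 2_15441 at 0.053 for the day 5 against day 1 change with minus without melatonin and at -0.093 for LCdM1 minus LCd1. With the most abundant isoform, 2_15441 was at -0.14 and 2_15461 at -0.17 for LCdM1 minus LCd1, and 2_15461 at 0.14 for LCdM1 minus LCdM0, 0.012 for LCd1 minus LCd0 and 0.0050 for the day 5 against day 0 change with minus without melatonin. Leaving out 1 library gave 2_15441 -0.13 to 0.11 for the day 5 against day 0 change with minus without melatonin, -0.20 to 0.0295 for LCdM0 minus LCd0 and -0.19 to 0.049 for LCdM5 minus LCd5. It gave 2_15461 -0.14 to 0.25 for LCdM1 minus LCd1. It gave 7_86961 -0.11 to 0.24 for the day 1 change with minus without melatonin, -0.21 to 0.10 for LCd5 minus LCd1, -0.13 to 0.22 for LCdM0 minus LCd0 and -0.0058 to 0.16 for LCdM1 minus LCd1. Root differences given without a test changed sign as well when 1 library was left out. For 2_15441 they were -0.38 to 0.26 (RCdM1 minus RCdM0), -0.17 to 0.47 (RCdM5 minus RCdM1) and -0.15 to 0.29 (RCdM5 minus RCdM0). RCdM5 minus RCdM1 was -0.31 to 0.39 for 2_15461, and RCdM1 minus RCd1 was -0.16 to 0.11 for 1_62501. FPKM hold no read counts, so the precision of low values such as 1_62501 and the leaf values of 2_15461 is not known.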

Other observations

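An isoform of 2_15441, chosen after its values were seen, differed between the leaf groups more than the gene did. Its second new isoform had 74.6, 132 and 116 FPKM in LCdM1, against 1.04, 0 and 0.176 FPKM in LCd1, while the whole gene had 819, 940 and 998 FPKM in LCdM1, against 874, 833 and 850 FPKM in LCd1. The log2 difference of the isoform was 6.30 ± 1.46 and did not pass over 33357 isoforms (limma adjusted p = 0.462), of which 4 (0.012%) passed. On day 0 the groups overlapped, with 87.7, 113 and 94.9 FPKM in LCdM0, against 0.124, 50.0 and 111 FPKM in LCd0. On day 5 they overlapped too, with 28.1, 89.45 and 1.49 FPKM in LCdM5, against 0.0152, 0.0477 and 6.47 FPKM in LCd5.

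The first new isoform of 2_15461, also chosen after its values were seen, was listed at 0 in all 3 LCdM5 libraries, against 0.765, 2.59 and 2.61 FPKM in LCdM0. Its log2 change of -1.50 ± 0.44 passed (limma adjusted p = 0.0366), as did 12.8% of isoforms, while the reference isoform did not (-0.23 ± 0.31, limma adjusted p = 0.703).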
